A study of Mus musculus with 3 samples.

Results

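DNA replication genes were examined in male gonads of Cyp26b1-/- mouse embryos (MCH line) taken on embryonic day 12.5, 13.5 or 14.5 (E12.5, E13.5 and E14.5). The gene set was fixed by name. It holds 48 genes that license replication origins, form and start the replicative helicase, copy and join DNA, supply deoxynucleotides or encode the E cyclins. Of these, 45 were matched to a probe through a RefSeq accession, out of 13484 genes tested. Gins1, Gins2 and Rfc3 were matched to none and have no value here. Cyp26b1 is an enzyme that degrades retinoic acid, and the knockout was the only genotype analysed, so every comparison is between stages of the knockout gonad. There were 2 one-colour Agilent arrays a stage, which the series calls biological duplicates. Neither the animals pooled for an array nor the extent of the deletion is given in the sources used here.

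Replication starts when the origin recognition complex, with Cdc6 and Cdt1, loads a ring of MCM proteins on DNA. The kinase made of Cdc7 and Dbf4, with Mcm10, Cdc45 and the GINS complex, turns the ring into a working helicase in S phase. Primase and DNA polymerases alpha, delta and epsilon then copy the strands, Pcna holds the polymerases on the template, and Lig1 and Fen1 join the short fragments of the lagging strand. Many of these genes are transcribed as cells pass from G1 into S phase, under E2F factors. In the fetal testis of these stages, Sertoli cells and other somatic cells divide, while male germ cells normally leave the cell cycle.

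Because E2F is the textbook regulator of this set, its motif is described first. The search was run after the stage comparisons given below, and its classes use their calls. RefSeq promoter windows of GRCm38.p6, running from 250 bases before to 50 bases after a transcription start, were found for 39 of the 48 genes. On either strand, 1 of the 4 exact words TTTCCCGC, TTTGGCGC, TTTCGCGC and TTTGCCGC occurred in 14 of the 39 genes (35.9%), against 2.60% of all 27025 genes with a window. The words were in 5 of the 14 genes with a window that were lower at E14.5 than at E12.5 (35.7%), and in 8 of 24 whose change did not pass the test (33.3%). The letters CCAAT, counted on both strands, were in 59.0% of the replication genes and 41.1% of all genes. TTTGAA or TTCGAA, the words of the cell cycle homology region, were in 23.1% and 21.7%. Overlapping matches were counted once a gene, and a match is a description of the letters, not a measured site. The windows below show the E2F words of genes in both classes, 4 that were lower at E14.5 and then 3 that did not pass, each 5′ to 3′ on the gene's strand with up to 30 bases on either side and the matched letters in capitals. They lie before the start site, with the first matched base 138 bases before it in Cdc6 (chr11:98907983-98908050, plus strand), 110 in Mcm6 (chr1:128359774-128359845, minus), 165 in Mcm7 (chr5:138172011-138172078, minus), 138 in Pola1 (chrX:93632256-93632323, minus), 153 in Mcm5 (chr8:75109326-75109397, plus), 41 in Gins3 (chr8:95633488-95633555, plus) and 27 in Orc1 (chr4:108579397-108579453, plus). In Mcm5 and Mcm6 a pair of words on opposite strands overlap.
Cdc6: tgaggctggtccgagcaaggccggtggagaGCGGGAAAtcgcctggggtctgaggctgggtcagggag
Mcm6: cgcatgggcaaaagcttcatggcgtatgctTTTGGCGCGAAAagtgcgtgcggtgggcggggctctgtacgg
Mcm7: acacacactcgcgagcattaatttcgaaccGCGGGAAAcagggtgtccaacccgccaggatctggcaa
Pola1: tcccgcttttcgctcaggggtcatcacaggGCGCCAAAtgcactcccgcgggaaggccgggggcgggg
Mcm5: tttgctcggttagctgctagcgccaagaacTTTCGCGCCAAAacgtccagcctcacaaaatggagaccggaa
Gins3: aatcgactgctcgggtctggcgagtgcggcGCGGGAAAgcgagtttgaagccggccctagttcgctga
Orc1: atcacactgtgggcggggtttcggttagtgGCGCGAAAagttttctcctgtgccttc

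Signals below are log2 values relative to the 75th percentile of the array, and a change is the difference between 2 stage means on that scale, ± its limma SE (n = 2 arrays a stage). A change passes at a Benjamini-Hochberg adjusted p under 0.05 over all 13484 genes. All 45 measured genes were well above background on all 6 arrays. The E12.5 arrays were on slide 1 and the 4 others on slide 2. Any change from E12.5 and an effect of the slide therefore cannot be told apart, whereas E13.5 and E14.5 share a slide. Across all genes the SD of the log2 difference was 0.295 to 0.363 between duplicates, and 0.339 between the second E13.5 array and the first E14.5 array. The gonad's own markers were present: all 6 Sertoli and all 8 germ cell markers were well above background on every array. The single Cyp26b1 probe read 3.83 to 4.96, but where it lies relative to the deletion is not known here, so it does not check the genotype.

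A part of the replication genes was lower at the last stage. Between E12.5 and E14.5, 15 of the 45 measured genes fell and 0 rose, with a median change of -0.28 over the 45 against 0.03 over all genes. The 15 are 33.3% of the set, where 21.2% of all genes were lower and 25.5% higher under the same test. They are Orc2, Orc6 and Cdc6 of licensing, Mcm4, Mcm6 and Mcm7 of the ring, the kinase subunit Dbf4, the polymerase subunits Pola1, Pola2, Pold2 and Pole2, the clamp Pcna, Rrm2 and Tyms of nucleotide supply, and Ccne1. The falls were moderate: no called gene changed 2-fold, and the largest was that of Dbf4, at 1.90-fold. The arrays of E14.5 lay below those of E12.5 without overlap in 28 genes (62.2%) and above in 3, where the shares over all genes were 35.9% and 39.7%. In bulk tissue, fewer cells of a type and less RNA per cell cannot be told apart.

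**Figure D1:**
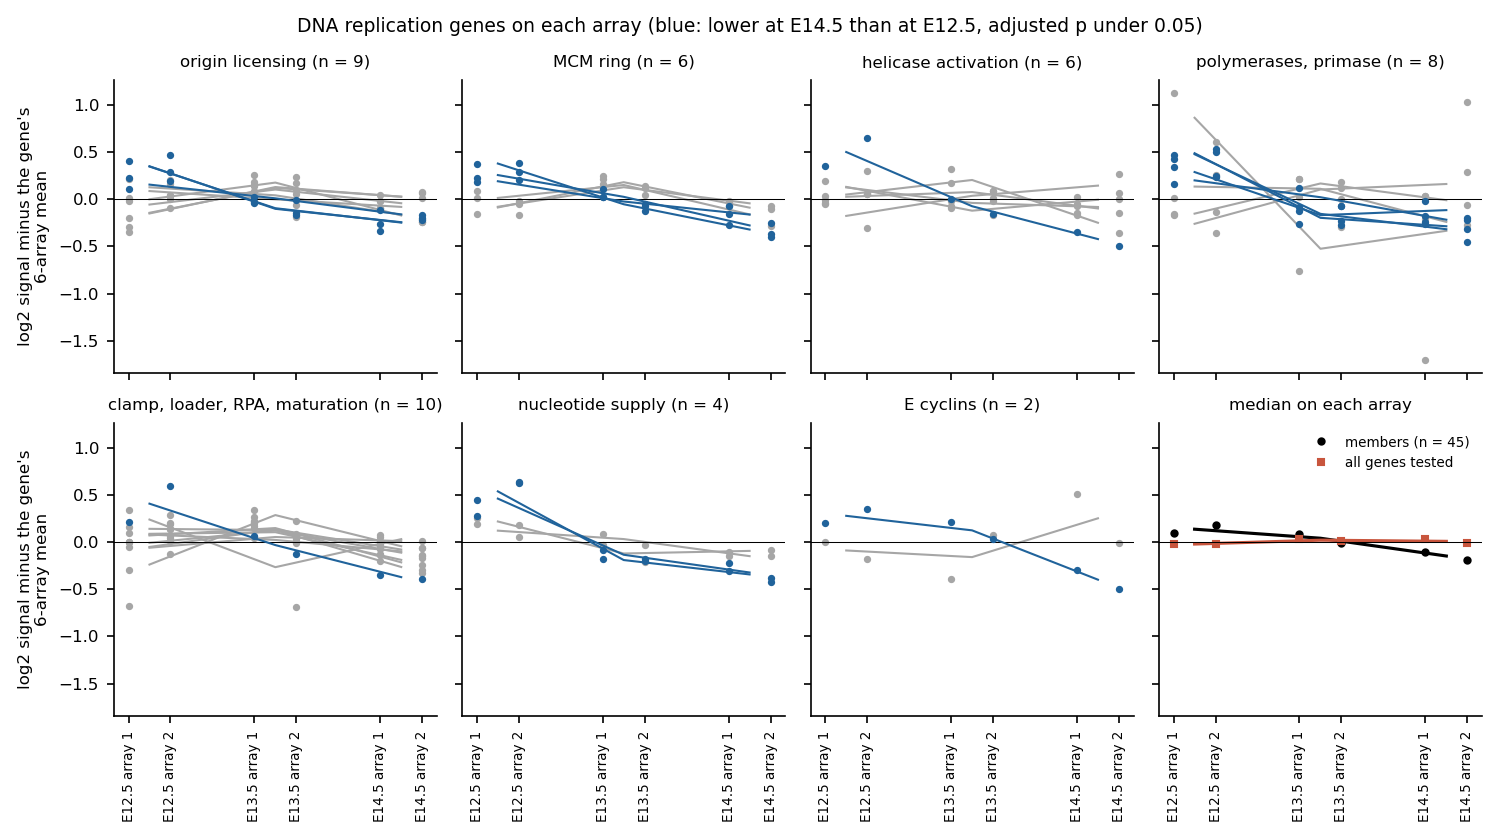
Log2 signal of each measured replication gene on the 6 arrays, minus the gene's own mean over them, with 1 panel a role; points are arrays, lines join stage means, and blue marks the 15 genes that fell from E12.5 to E14.5. The last panel gives the median of the 45 genes, from 0.09 and 0.18 on the E12.5 arrays to -0.10 and -0.20 on the E14.5 arrays, beside the median of all genes tested, which stays within 0.03 of 0.

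The 2 steps differed in what passed. From E12.5 to E13.5, 9 genes fell and 0 rose (Orc6, Cdc6, Mcm4, Dbf4, Pola1, Pola2, Pold2, Rrm2 and Tyms), against 14.0% lower and 18.0% higher over all genes, and the median was -0.09. The E13.5 arrays lay below those of E12.5 in 19 genes (42.2%) and above in 13, against 32.4% and 39.5% of all genes. This first step rests on few arrays. Its median was -0.03 without the second E13.5 array, -0.13 without the first, and -0.08 without the second E12.5 array. Each such fit leaves 1 array in a stage, and fewer of all genes passed in it as well as fewer of the set.

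From E13.5 to E14.5, within 1 slide, 37 of the 45 differences were below 0 and the median was -0.17, against -0.01 over all genes. The E14.5 arrays lay below both E13.5 arrays in 31 genes (68.9%) and above in 0, where 28.4% of all genes lay below and 27.3% above. No single gene passed in limma, a step in which 0.00742% of all genes were lower and 0.0445% higher. At an unadjusted p under 0.05 there were 6 of the 45 (13.3%), all lower, where 18.5% of all genes had such a p and 7.26% had it and were lower. These 6 were Ccne1 (-0.52 ± 0.13), Mcm10 (-0.45 ± 0.13), Fen1 (-0.39 ± 0.13), Rpa2 (-0.36 ± 0.13), Prim1 (-0.35 ± 0.13) and Mcm2 (-0.27 ± 0.11), with adjusted p from 0.142 to 0.27. The difference between the second and the first step passed in 0 of the 45 genes, against 0.222% of all genes higher and 0.267% lower, and 5 (11.1%) had an unadjusted p under 0.05, below the 21.0% of all genes (Mcm2, Mcm10, Pola2, Pold1 and Rrm2, adjusted p 0.163 to 0.216). By the values of the arrays alone, 12 genes (26.7%) were lower at each step without overlap, as were 12.2% of all genes (Orc2, Orc6, Cdc6, Mcm4, Mcm6, Mcm7, Dbf4, Pole2, Pcna, Rfc2, Rrm2 and Tyms). Another 9 (20.0%) had both E13.5 arrays above all the others, as had 8.07% of all genes (Orc1, Orc4, Mcm2, Mcm3, Mcm5, Mcm10, Pold1, Rfc5 and Rpa3). These counts use the brightest probe of a gene. The other probes of Cdc6 and Rfc2 did not show the first pattern, and those of Orc4 and Mcm3 did not show the second. Both patterns are descriptions, drawn after the values were seen.

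**Figure D2:**
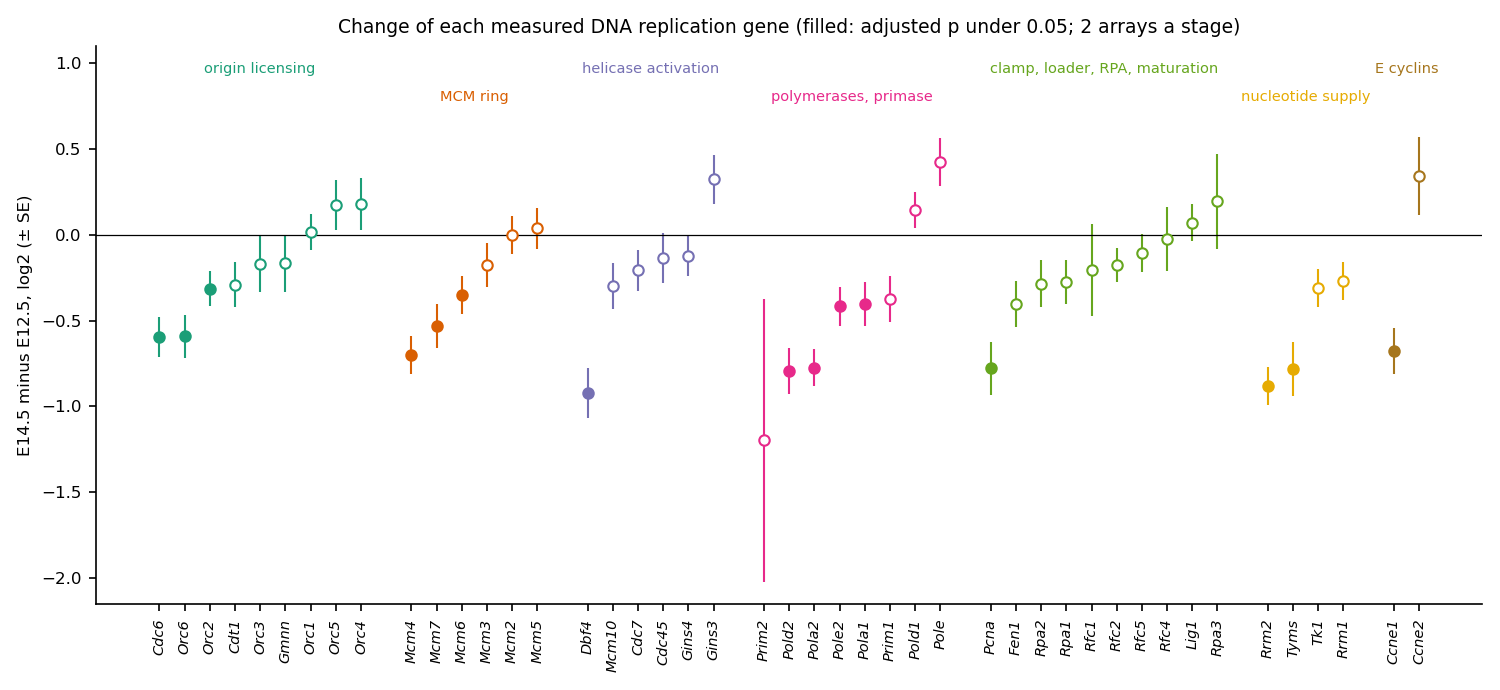
Log2 difference E14.5 minus E12.5 of each measured gene, ordered by role, with SE bars from limma (n = 2 arrays a stage); filled points pass an adjusted p of 0.05. All 15 filled points lie below 0, and the wide bar of Prim2 at -1.20 comes with E14.5 arrays that differ by 2.73.

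Origin licensing had 3 genes that fell of 9 measured (33.3%, against 21.2% of all genes), with a median of -0.17. The same 21.2% stands beside the count of falls in each role below. Cdc6, the ATPase that helps load the MCM ring, read 0.78 and 0.67 on the E12.5 arrays, 0.34 and 0.22 on those of E13.5, and 0.04 and 0.21 on those of E14.5. In this order, used for every gene below, its stages do not overlap. It fell by 0.59 ± 0.12 from E12.5 to E14.5 (adjusted p = 0.00996). Its other probe gave -0.25, which did not pass when every probe was tested apart. Orc6, the smallest subunit of the origin recognition complex, read 4.17 and 4.41, then 3.91 and 3.77, then 3.68 and 3.72. Most of that fall of 0.59 ± 0.13 (adjusted p = 0.0127) lay in the first step, and the call was lost without the first E14.5 array (0.0514). Orc2, another subunit, went from 1.68 and 1.76 through 1.59 and 1.56 to 1.45 and 1.36, a small and even decline of 0.32 ± 0.10 (adjusted p = 0.0474) whose call was lost in 12 of 16 alternative settings.

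The other licensing genes did not pass. Cdt1, which brings the MCM ring to origins, had a change of -0.29, and Gmnn, which encodes the Cdt1 inhibitor geminin, -0.17. The ratio of Cdt1 to Gmnn within an array moved by -0.12 from E12.5 to E14.5, less than its spread over the E12.5 duplicates (0.17 and -0.17). Orc1, which is read by a probe named only in the E12.5 files, was near 0 in change (0.01, 95% interval -0.25 to 0.27), and Orc5 was at 0.17. In 2 genes the probes disagreed in sign. Orc3 read 0.96 and 1.37, then 1.42 and 1.26, then 1.06 and 0.92 by its brightest probe, with E14.5 inside the range of E12.5 but for 1 array. Its 3 probes gave changes of -0.17, 0.23 and -0.46, none past the test. The brightest Orc4 probe read 0.88 and 1.28, then 1.32 and 1.40, then 1.22 and 1.30, a change of 0.18, while the other two gave -0.74 and -1.02 (adjusted p = 0.0103 and 0.00738 with every probe tested apart), so no direction is given for Orc4; with the mean of its probes it fell by 0.53 (0.0193).

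By the calls alone, the MCM ring genes divided in 2, and the border is not sharp. With every probe tested apart in limma, Mcm6 changed by -0.35 (adjusted p = 0.0627). The Mcm3 probe named in all files changed by -0.33 (adjusted p = 0.0724). Its 6 subunits form 1 hexamer, yet Mcm4, Mcm6 and Mcm7 fell while Mcm2, Mcm3 and Mcm5 did not pass. Mcm4 read 5.54 and 5.55, then 5.19 and 5.04, then 4.90 and 4.80. It declined by 0.70 ± 0.11 (1.62-fold, adjusted p = 0.00488), and its stages do not overlap. Mcm7 went from 5.50 and 5.55 through 5.37 and 5.21 to 5.11 and 4.87, a fall of 0.53 ± 0.13 (adjusted p = 0.0187). Mcm6 went from 6.49 and 6.52 through 6.34 and 6.24 to 6.24 and 6.07, the smallest of these falls at 0.35 ± 0.11 (adjusted p = 0.0441). The Mcm7 call was lost in 4 and the Mcm6 call in 11 of 16 alternative settings.

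Mcm2 read 3.20 and 3.33, then 3.59 and 3.47, then 3.28 and 3.25, so its E14.5 arrays lie inside the range of E12.5 (change -0.00, 95% interval -0.27 to 0.27). Mcm5 followed the same course, with 4.41 and 4.23, then 4.61 and 4.44, then 4.38 and 4.33 (0.04, -0.26 to 0.33). Mcm3 read 5.04 and 4.90, then 5.12 and 5.09, then 4.92 and 4.67 (-0.17), by a probe named only in the E12.5 files, and its other probe gave -0.33. By these probes all 3 were highest at E13.5, without overlap with E12.5 or E14.5. The other Mcm3 probe, named in all files, had no such peak. It read 2.83 and 2.87, then 2.86 and 2.76, then 2.59 and 2.44. From E13.5 to E14.5 every one of the 6 subunits was lower without overlap, by 0.14 (Mcm6) to 0.31 (Mcm3), and none passed. Over all genes, 28.4% were lower without overlap in this step.

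The 2 trios can be compared within each array, where differences in scaling between arrays cancel. Mcm3 enters by its probe named only in the E12.5 files. The mean of Mcm4, Mcm6 and Mcm7 over the mean of Mcm2, Mcm3 and Mcm5, set to 0 at E12.5, was -0.05 and 0.05 on the E12.5 arrays, -0.48 and -0.51 on the E13.5 arrays, and -0.45 and -0.51 on the E14.5 arrays. The gap between the trios was thus as wide at E13.5 as at E14.5, and it opened between arrays of different slides. These trios were formed after the values were seen, so the ratio has no test. With median scaling, which moved the median of all genes by -0.15 in this comparison, Mcm2, Mcm3 and Mcm5 were at -0.15, -0.32 and -0.11 and still did not pass.

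**Figure D3:**
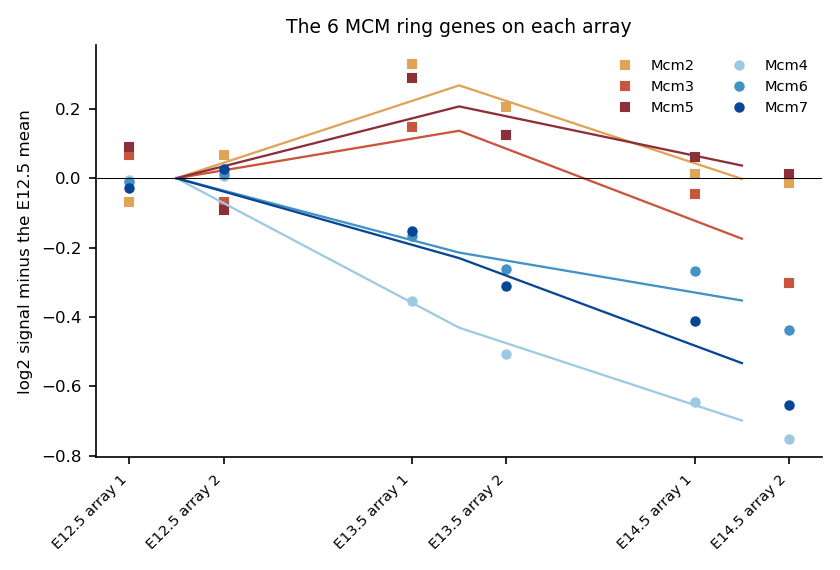
Log2 signal of the 6 MCM ring genes on each array, minus each gene's E12.5 mean; points are arrays and lines join stage means. Mcm4, Mcm6 and Mcm7 (blue circles) lie below 0 on all 4 later arrays, while Mcm2, Mcm3 and Mcm5 (squares) lie above 0 on both E13.5 arrays and come back at E14.5.

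Of the helicase activators, 1 of 6 measured genes fell. Dbf4, the regulatory subunit that activates the Cdc7 kinase, read 1.57 and 1.88, then 1.23 and 1.07, then 0.87 and 0.73. Each stage lay below the one before without overlap, and the fall of 0.92 ± 0.14 (adjusted p = 0.00485) is the largest that passed in the set. Its catalytic partner Cdc7 had a change of -0.21, which did not pass, with 3 probes from -0.31 to -0.03. Within arrays the ratio of Dbf4 to Cdc7 moved by -0.71, to -0.56 and -0.87 on the E14.5 arrays. Mcm10 was at -0.30, Cdc45 at -0.14 and Gins4, of the GINS complex, at -0.12. Gins3 was higher on both E14.5 arrays than at E12.5 (0.32 ± 0.14, adjusted p = 0.114), the only such gene of this role.

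Of the polymerase and primase genes, 4 of 8 measured fell, and the subunits of an enzyme differed. Pold2, an accessory subunit of polymerase delta, read 1.56 and 1.66, then 1.05 and 0.90, then 0.95 and 0.68, and fell by 0.79 ± 0.13 (adjusted p = 0.00615). Most of the drop lay between E12.5 and E13.5, and the E13.5 and E14.5 arrays overlap. Pold1, the catalytic subunit, was at 0.14 ± 0.10 and its second probe at 0.16. Pole2, an accessory subunit of polymerase epsilon, read 0.54 and 0.63, then 0.50 and 0.31, then 0.15 and 0.19, and fell by 0.42 ± 0.11 (adjusted p = 0.0281). Pole, the catalytic subunit, went the other way without passing, from 3.24 and 3.04 through 3.42 and 3.59 to 3.44 and 3.69 (0.42 ± 0.14, adjusted p = 0.0522). It passed as higher in 3 of 16 alternative settings.

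Both polymerase alpha genes fell. Pola2, its accessory subunit, read 0.43 and 0.46, then -0.16 and -0.32, then -0.30 and -0.35, a fall of 0.77 ± 0.11 (adjusted p = 0.00336) that lay almost wholly in the first step. Pola1, the catalytic subunit, fell by 0.40 ± 0.13 (adjusted p = 0.0467) and its call was lost in 11 of 16 alternative settings. Prim1, the small primase subunit, had a change of -0.37 (adjusted p = 0.0629). Prim2, the large subunit, read 1.44 and 0.92, then -0.44 and 0.03, then -1.38 and 1.35; its duplicates are so far apart that its change of -1.20 ± 0.82 says little.

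Accessory and catalytic subunits of 1 enzyme can be compared within arrays. The ratio of Pold2 to Pold1, set to 0 at E12.5, was -0.92 and -0.98 on the E13.5 arrays and -0.85 and -1.02 on the E14.5 arrays. That of Pole2 to Pole was -0.36 and -0.72, then -0.74 and -0.94. That of Pola2 to Pola1 was smaller, at -0.05 and -0.40, then -0.45 and -0.30. The pairs are natural partners but were picked with the values in view, so no test is given.

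**Figure D4:**
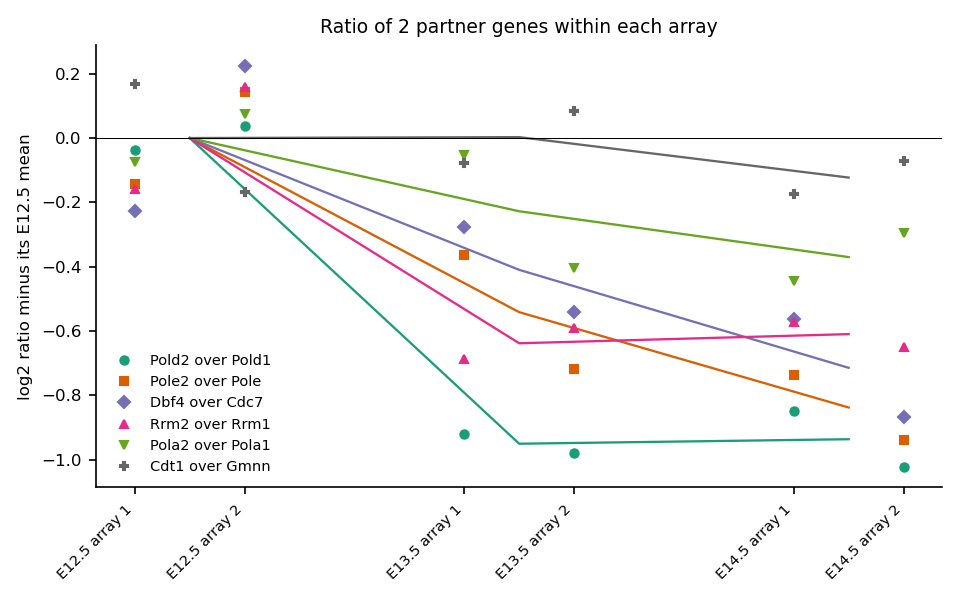
Log2 ratio of 2 partner genes on each of the 6 arrays, minus its E12.5 mean; points are arrays and lines join stage means. Pold2 over Pold1 lies at -0.85 to -1.02 on the later arrays, while Cdt1 over Gmnn stays between -0.17 and 0.17 on all 6.

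The clamp, clamp loader, single-strand binding and Okazaki maturation genes had the lowest share of falls, 1 of 10 measured, with a median of -0.19. Pcna, the sliding clamp, read 5.07 and 5.45, then 4.92 and 4.73, then 4.50 and 4.46. Every later array lay below both E12.5 arrays, and it fell by 0.78 ± 0.16 (1.71-fold, adjusted p = 0.0105). Fen1, the flap nuclease of lagging-strand fragments, lay just outside the threshold at -0.40 ± 0.13 (adjusted p = 0.051), with nearly all of the difference in the second step. Lig1, the ligase of those fragments, was at 0.07 (95% interval -0.20 to 0.34).

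The clamp loader genes ranged from -0.21 (Rfc1) to -0.03 (Rfc4), with Rfc2 at -0.18 and Rfc5 at -0.10. Rfc1 rests on unequal duplicates, 0.84 apart at E13.5. Of the genes for replication protein A, which coats single-stranded DNA, Rpa1 was at -0.28, Rpa2 at -0.28 and Rpa3 at 0.19, the last with E12.5 arrays 0.89 apart. From E13.5 to E14.5, 9 of the 10 genes of this role were below 0, with a median of -0.26. In this step 8 were lower without overlap (80%, against 28.4% of all genes).

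Of the 4 nucleotide supply genes, 2 fell and the E14.5 arrays of all 4 lay below those of E12.5, as did those of 35.9% of all genes. Rrm2, the small subunit of ribonucleotide reductase that is made in S phase, read 1.69 and 1.86, then 1.06 and 1.04, then 0.94 and 0.85. It fell by 0.88 ± 0.11 (1.84-fold, adjusted p = 0.00257), the lowest p of the set. Rrm1, the large subunit, which cells keep through the cycle, read 4.10 and 3.96, then 4.0 and 3.88, then 3.76 and 3.76, a change of -0.27 ± 0.11 (adjusted p = 0.0898). The ratio of Rrm2 to Rrm1 within arrays moved by -0.64 from E12.5 to E13.5 and stood at -0.61 at E14.5.

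Tyms, which makes thymidylate, read 4.14 and 4.50, then 3.78 and 3.68, then 3.64 and 3.44. It fell by 0.78 ± 0.16 (adjusted p = 0.0102), its second probe gave -0.94, and leaving out the second E14.5 array ended the call (0.0528). Tk1, which salvages thymidine, was at -0.31 ± 0.11 (adjusted p = 0.0641). Ccne1 and Ccne2, the E cyclins that drive entry into S phase with Cdk2, differed from each other. Ccne1 read 3.30 and 3.45, then 3.31 and 3.13, then 2.80 and 2.59. It fell by 0.68 ± 0.13 (adjusted p = 0.00963), mostly in the second step, and its second probe gave -0.70. Ccne2 read -0.90 and -1.07, then -1.29 and -0.82, then -0.39 and -0.91; the stages overlap, and the change of 0.34 ± 0.23 did not pass. With median scaling the change of Ccne2 was 0.19.

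Other genes of the pathway were read from lists fixed by function. From E12.5 to E14.5, 21.2% of all genes fell and 25.5% rose. Of 30 other replisome and origin firing genes, 13 fell (43.3%) and 0 rose from E12.5 to E14.5, with a median of -0.18. Dna2, a nuclease and helicase of lagging-strand maturation, fell by 2.05 ± 0.15 (adjusted p = 0.000715) and Timeless, of the fork protection complex, by 1.29 ± 0.15 (adjusted p = 0.00188), more than any replication gene of the set. The largest values above 0 were those of Rif1 (0.29) and Recql4 (0.27), neither past the test. Of 22 other nucleotide supply genes, 7 fell (31.8%) and 0 rose, with a median of -0.30. Mthfd1, of folate metabolism, fell by 1.18 and Dctd, the dCMP deaminase, by 1.0, while Rrm2b, the p53-induced counterpart of Rrm2, was at 0.32 and Tk2 at 0.25, neither past.

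The G1/S regulators moved both ways: 9 of 20 fell (45%, against 21.2% of all genes) and 3 rose, where 25.5% of all genes rose. Skp2, which targets p27 for destruction, fell by 1.58, and Tfdp1, the partner of E2F proteins, by 1.20. Fbxw7, which targets cyclin E for destruction, rose by 1.06 ± 0.11 (adjusted p = 0.00157), Ccna1 by 0.80 and Rb1 by 0.61. The signal of Ccna1 was low, at -4.35 and -4.48 on the E12.5 arrays and -3.56 and -3.67 on those of E14.5. Of 10 genes of chromatin assembly and maintenance at the fork, 5 fell, led by Uhrf1 (-0.73) and Asf1a (-0.73). The paralog Asf1b rose by 0.60 ± 0.10, and Hells was at 0.13. For comparison, 16 of 26 mitosis genes fell and 1 rose, with a median of -0.49; Kif11 fell by 1.45 and Ttk by 1.30, and Bub1 rose by 0.38. None of these genes passed from E13.5 to E14.5, where the list medians were -0.12, -0.30, -0.05, -0.11 and -0.26 in the order given.

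**Figure D5:**
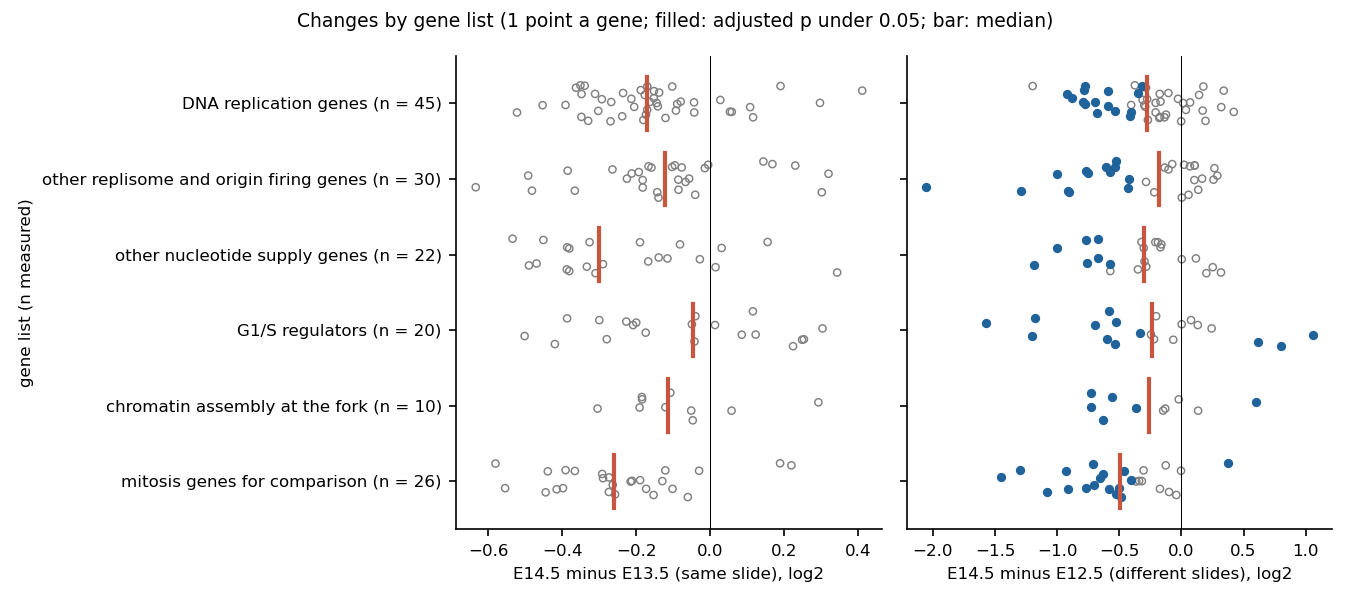
Log2 change of each gene in 6 lists from E13.5 to E14.5 (left) and from E12.5 to E14.5 (right); filled points pass an adjusted p of 0.05 and bars are medians. On the right the median of the replication genes is -0.28 and that of the mitosis genes -0.49; on the left no point is filled and all 6 medians lie below 0.

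Cell type markers moved over the same stages. The summed signal of 7 erythroid markers, relative to the 75th percentile, was 115 and 151, then 69.3 and 51.1, then 32.3 and 16.8, 5.43-fold lower at the last stage than at the first. That of 4 fetal Leydig markers was 22.7-fold higher at E14.5 than at E12.5, ranging from 2.57 and 3.61 to 60.0 and 80.4, and that of 5 mesonephros markers went from 0.951 and 1.11 to 0.290 and 0.236. Germ cell markers summed to 41.5 and 52.4, then 76.8 and 81.0, then 77.2 and 63.5, and Sertoli markers to 61 and 53.2, then 56.4 and 56.9, then 52.5 and 48.3. Endothelial markers were at 0.735 and macrophage markers at 1.96 of their E12.5 level. A sum follows its brightest markers. From E12.5 to E14.5, 25.5% of all genes rose and 21.2% fell. Of 8 germ cell markers 4 rose and 1 fell. Of 6 Sertoli markers 1 rose and 1 fell, with changes from -1.50 to 0.83. Of 5 mesonephros markers 3 fell and 1 rose. Of 7 erythroid markers 4 fell and 0 rose, with 2 above 0. All 4 fetal Leydig and 3 of 5 macrophage markers rose, and 1 of 5 endothelial markers fell. The markers measured were well above background on all 6 arrays except 1 mesonephros marker, and Insl3 and Cd68 were not measured. The part of these shifts in the lower replication genes was not tested.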

How the data were processed

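The scanner files carry each spot's intensity as Agilent Feature Extraction wrote it, background-subtracted by the authors' software and not scaled between arrays, per the file headers (version 9.5, per the submitters' processing notes). They also carry median intensities of spot and background, and flags. The authors' own deposited table gives a linear ratio for each probe and stage, with the reference unstated. Its log2 differences had a correlation across the 45 genes of 1 with those of the scanner values, with an offset of 0.105 for E13.5 against E12.5; what the ratio is relative to stays unknown.

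Outlier spots were left out, spots of a probe averaged, log2 taken and each array's 75th percentile subtracted. RefSeq accessions named 23553 of 41174 probes. Where accessions differed between the E12.5 and later files, the later one was used, else the earlier. The 45 genes had 58 probes, and 10 genes had several; the brightest stood for the gene. A gene was tested if both arrays of any stage were well above background. The test was limma 3.58.1 (lmFit, eBayes, R 4.3.3) on all 6 arrays, two-sided, with 3 residual and 2.96 prior degrees of freedom. The script was tested on simulated data. Tables were handled in Python 3.11.15 with pandas 2.3.3 and figures drawn with matplotlib 3.10.9.

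The members, lists and comparisons were chosen with earlier results of these data known. Array values are given for up to 3 called genes of each role and for genes whose probes disagree. The latter are given by the brightest probe, with the changes of their other probes. Mcm2, Mcm3, Mcm5, Pole, Prim2, Rrm1 and Ccne2 were added after their values were seen. In other lists the 2 largest changes each way are named, with Rb1 added. Precision is limited by having 2 arrays a stage.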

Additional observations from a re-analysis of the deposited data

How the results depend on the processing

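The number of replication genes called from E12.5 to E14.5 was 15, all lower. It ran from 11 (no background filter) to 20 (normexp) with every array of the 2 stages kept, and was 0 with a 2-fold minimum. All genes called moved the same way, from 6299 to 5250 without a filter and 7093 with normexp. Pole was called higher with normexp, with a trended robust prior, and with genes well above background on all 6 arrays (lowest limma adjusted p = 0.0204). From E12.5 to E13.5 the 9 calls became 3 without a background filter and 0 with a 2-fold minimum. With a trended robust prior there were 13, 2 of them higher. All genes called in this first step were 4318, against 2865 without a filter and 5025 with that prior. When 1 array was left out, fewer of the set and fewer of all genes were called in both comparisons with E12.5. The cause was not tested. Across the 16 settings that keep the threshold, 8 of the 15 calls were kept under every one (Rrm2, Pola2, Dbf4, Mcm4, Pold2, Ccne1, Cdc6 and Pcna), and 0 of the first 9. The main fit treats the arrays as unpaired. Deviations of arrays with the same number had correlations of -0.0429 (E12.5 and E13.5) and -0.0599 (E12.5 and E14.5). For E13.5 and E14.5, which share a slide, the correlation was 0.229, so a weak pairing there is not excluded. With the number as a replicate block the counts were 4 for E13.5 and 12 for E14.5 against E12.5. All genes called were then 3770 and 5831. No gene of the set passed from E13.5 to E14.5, or in the difference between steps, under any setting, while all genes called in that second step went from 7 to 410 with normexp, 333 with a trended robust prior, 95 with median scaling and 0 without a filter. Orc4 was the only value that reversed with a call, to -0.53 (adjusted p = 0.0193) with the mean of its probes. Median scaling lowered the member median to -0.43 from E12.5 to E14.5, where that of all genes was -0.12. In the authors' deposited table the member median was 0.02 in the first step, -0.29 in the second and -0.29 over both, where that of all genes was 0.15, -0.13 and 0.01. Slide as a random block could not be fitted, since all arrays of a stage lie on 1 slide.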
